A study of Mus musculus with 400 samples.

Results

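The 7 tuft cell genes Dclk1, Trpm5, Pou2f3, Gfi1b, Avil, Il25 and Sh2d6 were examined in single cells of the mouse small intestine, sorted for high Lgr5. They were taken from a list of tuft cell genes and matched by identifier to 7 of the 33496 gene rows of the count table. They were read in the 380 of 400 cells that had at least 10000 counts, and by library set, the number from 01 to 10 in a cell's title. Set 01, with 38 cells, was kept apart from sets 02 to 10, with 36 to 39 cells each. The study measured polyadenylated RNA of cells sorted for high Lgr5, and by its title it asks about Mex3a, which encodes an RNA-binding protein. The receptor Lgr5, which strengthens the Wnt signal, is the standard mark of the stem cells at the crypt base.

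All cells belonged to 1 group. They came from Lgr5 GFP/+ mice, in which the Lgr5::EGFP-IRES-Cre-ERT2 allele places a green fluorescent protein under the Lgr5 locus, and no other genotype was analysed here. Crypts of the duodenum and jejunum were freed with EDTA and dispersed with dispase, dead cells were left out with the dye DAPI, and cells were captured on a Fluidigm C1 chip. The protocols in the labels also mention Cyp1a1::H2B-YFP mice, staining for EphB2 and tamoxifen for lineage tracing, and assign none of these to the sorted cells. Crypt fractions were pooled for each mouse, the mice were matched for age and sex, and no age is stated. No animal is named for any cell, so the cells are 1 sample and not replicates, and no p-value was computed. Intervals are exact, at 95%, and cover counting error only. Set 01 is 1 set, and whatever else set it apart from the other 9 sets cannot be told apart from its cells.

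Tuft cells are rare chemosensory cells of the intestinal epithelium, named for the tuft of microvilli on their free surface. They sense luminal compounds through a pathway shared with taste receptor cells, in which a G protein and a phospholipase release calcium that opens the channel TRPM5. In the mouse small intestine they are known as the main source of interleukin 25, which calls up a type 2 immune response to worms and protists, and they arise from crypt stem cells under the transcription factor Pou2f3.

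The upstream sequence of 3 members is shown because Trpm5 and Sh2d6 had the highest ratios of set 01 to the other sets among the members counted in at least 5% of cells, and Avil alone held the motif searched. Each is the 250 bases before the gene's start in RefSeq, build GRCm38.p6, written in the direction of the gene. Capitals mark ATGCAAA, part of the octamer bound by POU factors such as Pou2f3, searched on both strands, so that TTTGCAT is the same motif read from the other strand. The nearer of the 2 matches of Avil began 15 bases before its start, and the matches did not overlap. Of 32851 upstream windows of the same length in the table, 1355 (4.12%) held the motif, and of the 6 windows found for 5 members only that of Avil did. A match is a run of letters and not a shown binding site. The Sh2d6 window starts from the RefSeq start and lies inside the gene as GENCODE draws it.
Avil, chr10:127000459-127000708, plus strand: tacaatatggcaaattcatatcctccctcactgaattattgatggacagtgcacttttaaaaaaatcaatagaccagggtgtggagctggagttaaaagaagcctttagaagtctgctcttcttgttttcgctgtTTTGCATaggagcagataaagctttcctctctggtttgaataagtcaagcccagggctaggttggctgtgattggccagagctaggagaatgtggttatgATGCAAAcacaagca
Trpm5, chr7:143094643-143094892, minus strand: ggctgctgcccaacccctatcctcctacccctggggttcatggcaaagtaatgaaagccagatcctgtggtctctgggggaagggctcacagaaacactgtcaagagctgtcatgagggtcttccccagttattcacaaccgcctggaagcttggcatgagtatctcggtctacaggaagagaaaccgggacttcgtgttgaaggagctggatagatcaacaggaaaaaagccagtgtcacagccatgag
Sh2d6, chr6:72520037-72520286, minus strand: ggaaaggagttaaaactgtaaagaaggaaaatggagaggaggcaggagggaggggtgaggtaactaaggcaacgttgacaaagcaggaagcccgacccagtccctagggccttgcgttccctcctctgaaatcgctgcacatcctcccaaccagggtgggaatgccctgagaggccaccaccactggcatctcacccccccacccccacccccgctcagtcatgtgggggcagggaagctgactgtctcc

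The 380 cells held between 10766 and 70133 counts each, with a median of 32112 counts and 8616 genes. The median total of a set lay between 29070 and 37769, and that of set 01 was 32488. Lgr5 was counted in 97.9% of cells and the proliferation gene Mki67 in 99.2%. The highest count of any gene in any cell was 36, so ratios of abundant genes may be compressed, and the highest count of a member was 20. Marker genes of other cell types, not sought by the sort, gave the background: Cd8a of T cells was counted in 0.263% of cells, Cd79a of B cells in 0.789%, Col1a1 of fibroblasts in 2.89%, Cd3e of T cells in 10.3%, Elavl4 of neurons in 25.5%, Ptprc of leukocytes in 28.4%, Myh11 of smooth muscle in 40.0%, and Cpa3 of mast cells and Pecam1 of endothelium in 44.5% each. A share of cells within that wide range, taken alone, was not read as expression by stem cells.

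Pou2f3 was the member counted most widely. This POU-domain transcription factor, needed for tuft cells to form in mice, lies at chr9:43123939-43210369 on the minus strand and has 3.088 kb of exons. It was counted in 85.5% of cells (interval 81.6 to 88.9%), above every background gene, and 74 cells had 5 counts or more. In CPM, a gene's counts scaled to the total counts of all genes, its level was 94 CPM in set 01. Across sets 02 to 10 it was lowest at 74, with a median of 87.5 and a highest value of 100.6 CPM. Set 01 lay within the range of the other sets by level. The share of cells was 76.3% in set 01 and from 81.1 to 97.4% in the other sets, so that set 01 was the lowest by share. The cells with a Pou2f3 count were deeper, with a median total of 33552 counts against 22615 in the cells without. Of its paralogs, Pou2f1 was counted in 75.5% of cells and Pou2f2 in 33.4%.

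Gfi1b, a zinc finger repressor best known in blood cell development and also found in tuft cells, lies at chr2:28609450-28621982 on the minus strand. Only 7 of 380 cells had a count (1.84%, interval 0.744 to 3.76%), with 9 counts in all. Set 01 held 4 of these counts in 2 cells, and sets 02 to 10 held 5 counts in 5 cells. No count was found in 6 of these 9 sets. The share was below that of most background genes, and its paralog Gfi1 was counted in 1.58% of cells.

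Dclk1, a microtubule-associated kinase of the doublecortin family and the most used tuft cell marker in the mouse gut, lies at chr3:55242364-55539068 on the plus strand. The share of cells with a count was 57.1% (interval 52 to 62.1%). Its level was 94.9 CPM in set 01, and across sets 02 to 10 it was lowest at 20.7, with a median of 41.9 and a highest value of 52.2 CPM. Set 01 thus lay above all the others, and the share over all sets was above that of every background gene. In set 04 (38.5%) and set 05 (33.3%) the Dclk1 share was below the shares of Myh11, Cpa3 and Pecam1 over all sets. Shares were not adjusted for exon length. A single count was held by 10 cells of set 01 and 96 of sets 02 to 10, and 5 counts or more by 5 cells of set 01 and 18 of sets 02 to 10. Dclk1 has 15.3 kb of exons, the longest of the members, and overlaps exons of the annotated genes Gm21954 and Gm42609. Its paralogs Dclk2, Dclk3 and Dcx were counted in 41.3%, 15.0% and 16.3% of cells.

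**Figure D1:**
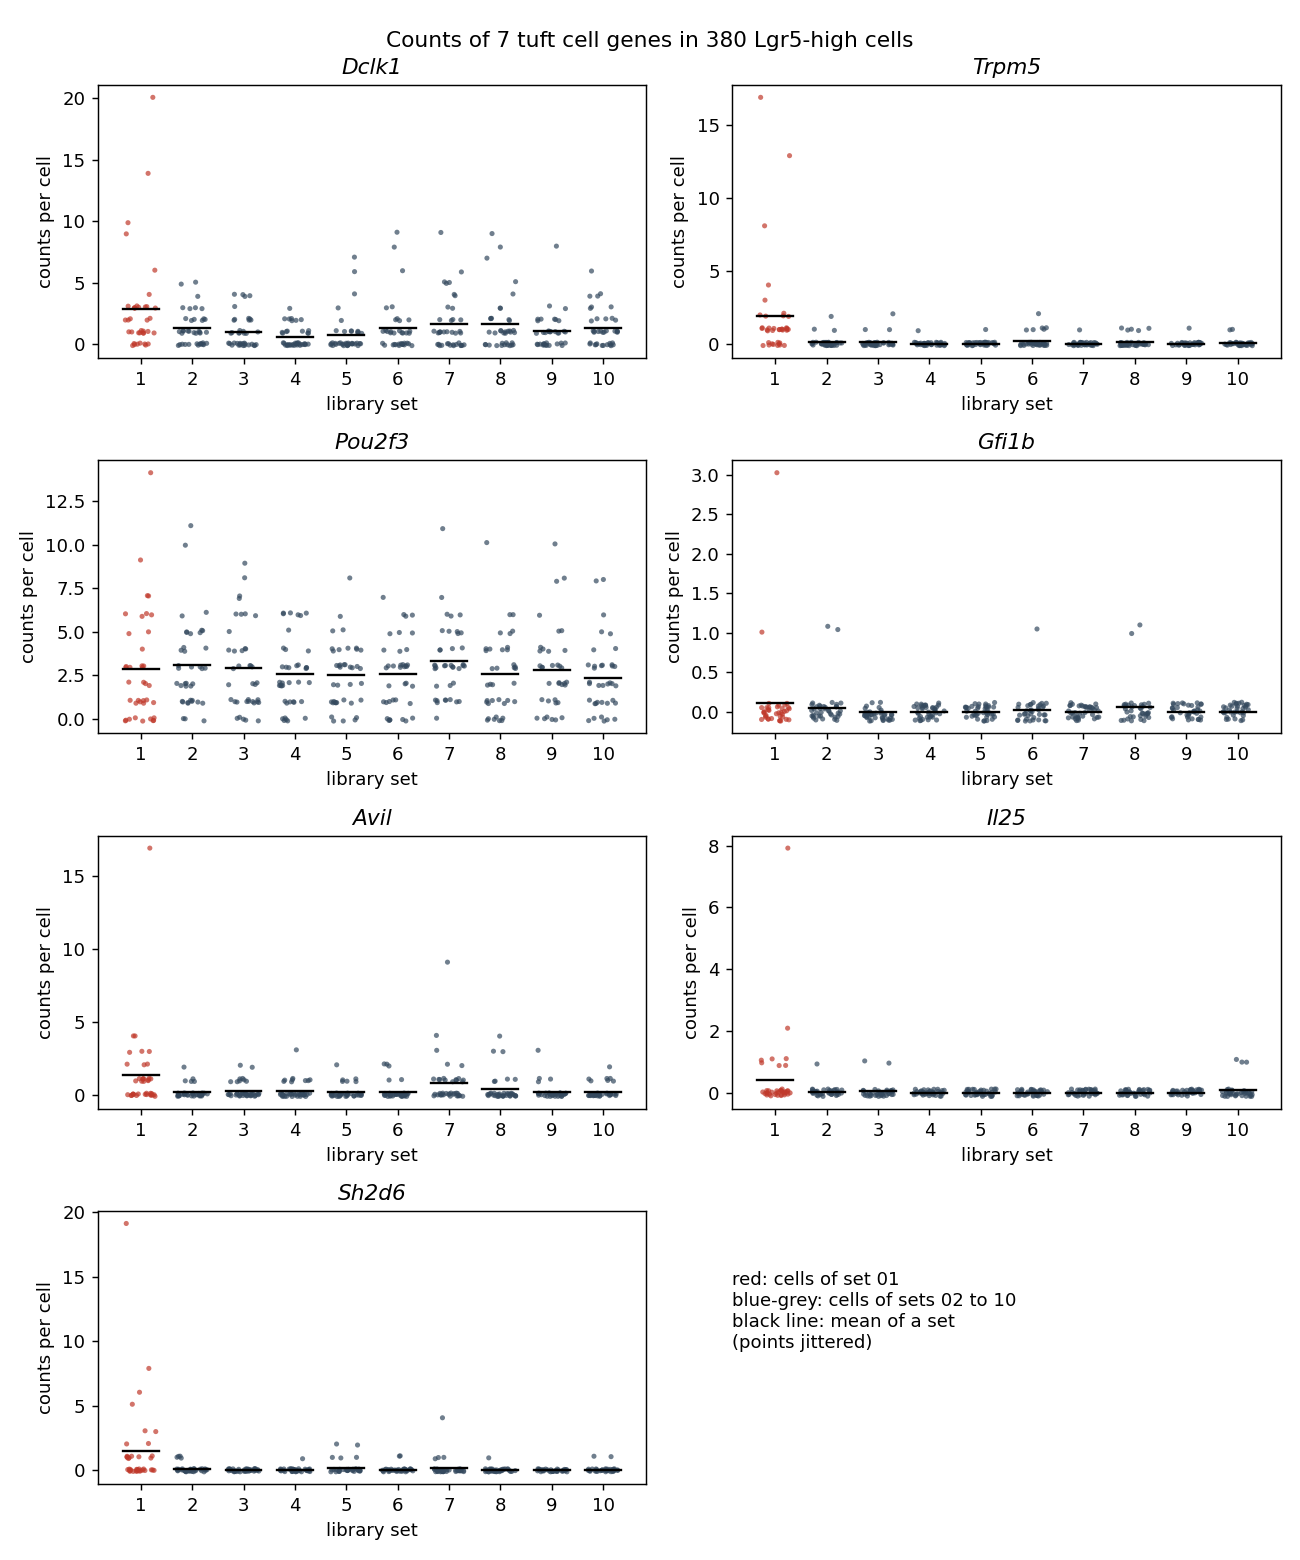
Counts per cell (vertical axis) of the 7 members in each of the 380 cells, by library set (horizontal axis). A black line marks the mean of each set, and points are jittered sideways and slightly up or down. Cells of set 01 are red and those of sets 02 to 10 blue-grey. Trpm5 reaches 17 counts in set 01 and at most 2 in the other sets, while Pou2f3 has a similar spread in all 10 sets.

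Trpm5, the calcium-activated cation channel at the end of the taste pathway, lies at chr7:143069153-143094642 on the minus strand. It was counted in 27 of 38 cells of set 01 (71.1%, interval 54.1 to 84.6%), against 23 cells of sets 02 to 10 (6.73%, interval 4.31 to 9.92%). Its level was 62.1 CPM in set 01, and across the other sets it was lowest at 0.673, with a median of 1.75 and a highest value of 6.64 CPM. No set came near set 01. In sets 02 to 10 no cell held more than 2 counts, and the share of cells there lay within the background range. Part of its exons overlaps Tssc4 on the opposite strand, and 2.57% of its 50-base stretches are shared. Tssc4 itself was at 45.7 CPM in set 01 against 26.3 CPM in sets 02 to 10. The related channel Trpm4 was counted in 78.4% of cells.

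Avil encodes advillin, an actin-binding protein of the villin family that lies in the tuft itself. The gene is at chr10:127000709-127020994 on the plus strand and shares 3.48% of its 50-base stretches with Tsfm on the opposite strand. Avil counts were found in 20 of 38 cells of set 01 (52.6%, interval 35.8 to 69%), against 68 cells of sets 02 to 10 (19.9%, interval 15.8 to 24.5%). Its level was 44 CPM in set 01, and in the other sets it was lowest at 4.81, with a median of 7.58 and a highest value of 20.9 CPM, in set 07. Set 07 stood between set 01 and the rest, and it held the cell with the most Avil counts outside set 01, with 9. Tsfm was at 86.2 CPM in set 01 and 74.4 CPM in sets 02 to 10. The paralog Vil1, which builds the brush border of all intestinal epithelial cells, was counted in 99.2% of cells.

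Sh2d6, which encodes a protein with an SH2 domain that binds phosphotyrosine and is enriched in tuft cells, lies at chr6:72513641-72521707 on the minus strand, and its exons overlap no other gene. Sh2d6 counts were found in 17 of 38 cells of set 01 (44.7%, interval 28.6 to 61.7%), against 19 cells of sets 02 to 10 (5.56%, interval 3.38 to 8.54%). Its level was 49.2 CPM in set 01, and in the other sets it was lowest at 0, in 2 sets, with a median of 1.75 and a highest value of 5.23 CPM. The ranges did not overlap.

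Il25, the cytokine by which tuft cells signal to innate lymphoid cells, lies at chr14:54932695-54935837 on the plus strand. Il25 counts were found in 8 of 38 cells of set 01 (21.1%, interval 9.55 to 37.3%), against 6 cells of sets 02 to 10 (1.75%, interval 0.647 to 3.78%). The 16 counts of set 01 gave 13.8 CPM. The other sets held 6 counts in all, with none in 6 sets and at most 2.63 CPM in set 10. Set 01 lay above them. Other members of the interleukin 17 family were counted in 0.526% of cells (Il17a) to 13.7% (Il17d).

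**Figure D2:**
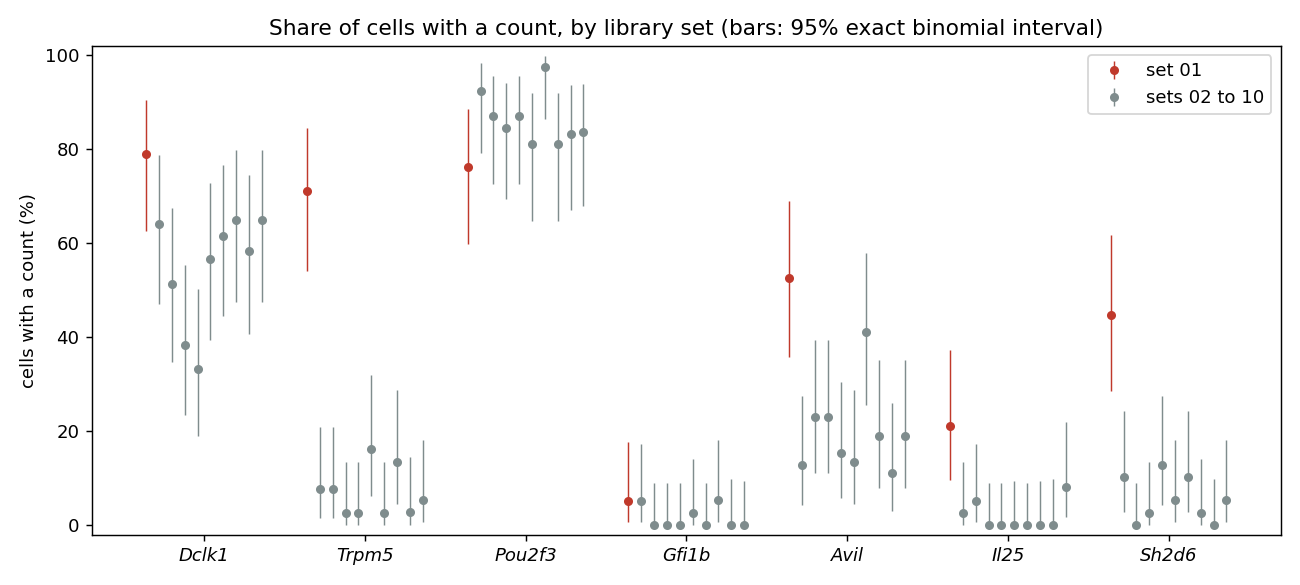
Share of cells with a count (vertical axis, percent) of each member by library set, with exact 95% binomial intervals as bars, set 01 in red at the left of each gene and sets 02 to 10 in grey after it. For Trpm5 and Sh2d6 the intervals of set 01 (54.1 to 84.6% and 28.6 to 61.7%) lie above those of every other set, and for Pou2f3 set 01 is the lowest point.

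Levels of different genes were compared per kb of exon, which is apt only if counts come from the whole transcript, and the counting method is not given in the sources used here. Pou2f3 had the highest level, at 27.8 CPM per kb in sets 02 to 10 pooled. Avil followed at 2.73, Dclk1 at 2.39, Sh2d6 at 1.29, Il25 at 0.512, Trpm5 at 0.369 and Gfi1b at 0.248 CPM per kb. With set 01 included the order differed, with Sh2d6 at 3.94, Avil at 3.70, Dclk1 at 2.76, Il25 at 1.70, Trpm5 at 1.26 and Gfi1b at 0.404 CPM per kb, below Pou2f3 at 28.05 CPM per kb. Over the single sets 02 to 10 Pou2f3 ranged from 24 to 32.6 CPM per kb, above the highest value of any other member in those sets, 6.14 CPM per kb for Avil. Each of the other members overlapped its neighbour in the order there, so neighbours did not differ beyond the spread of sets. In set 01 Sh2d6 reached 29.1 CPM per kb, next to Pou2f3 at 30.4 CPM per kb.

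Summed over cells, set 01 exceeded sets 02 to 10 by a log2 ratio of CPM of 4.72 for Trpm5 (interval 4.05 to 5.42), 4.66 for Il25 (3.23 to 6.30), 4.5 for Sh2d6 (3.78 to 5.25), 2.93 for Gfi1b (0.59 to 5.14), 2.25 for Avil (1.73 to 2.75) and 1.37 for Dclk1 (1.06 to 1.68). For Pou2f3 the log2 ratio was 0.13 with an interval of -0.17 to 0.42, which includes no difference. The Gfi1b ratio rested on 4 and 5 counts. Read against all genes, 5 of the 7 members passed a filter of a count in 5% of cells (Gfi1b and Il25 did not). On the log2(CPM + 1) scale 4 of these 5 were at least 2-fold higher in set 01, where 6.72% of 20832 genes were. The members were chosen with earlier results of these data known, so this is a description. The same 4 lay above every one of sets 02 to 10. So did 2 of 8 stem genes and 2 of the 11 paralogs past the filter, and the share over all genes is not given here. None of the 5 was 2-fold lower, while 9.0% of all genes were. Among the 20832 genes Trpm5 ranked 2, Sh2d6 ranked 3, Avil 81, Dclk1 638 and Pou2f3 8435.

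**Figure D3:**
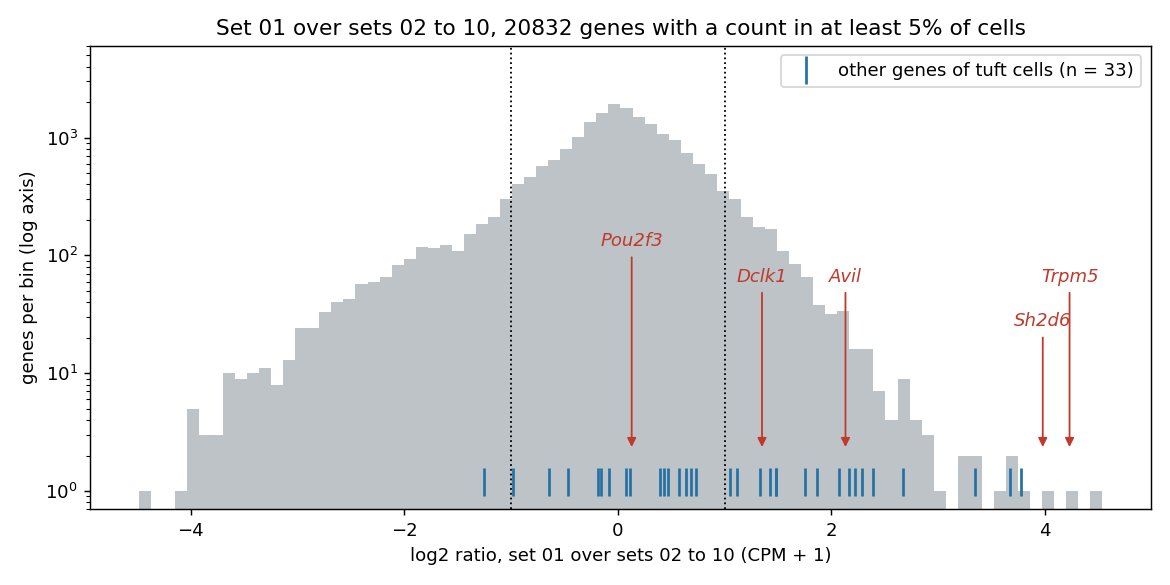
Number of genes (log axis) by log2 ratio of set 01 over sets 02 to 10, with 1 CPM added to both, for the 20832 genes past the share filter; dotted lines mark 2-fold. Red arrows place the 5 members past the filter, from Pou2f3 at 0.13 to Trpm5 at 4.23, and blue ticks the 33 other tuft cell genes, whose median is 1.05.

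A single cell, barcode 16 of set 01, held counts of all 7 members, 92 in all. It had 14 counts of Dclk1, 17 of Trpm5, 14 of Pou2f3, 3 of Gfi1b, 17 of Avil, 8 of Il25 and 19 of Sh2d6. It was the highest of the 380 cells for 6 of the members, and only Dclk1 was higher elsewhere, at 20 counts in cell 26 of set 01. Cell 16 was picked by its members, so its high member counts are partly built in. The share of all genes highest in it is not given here. Cell 26 also had 13 counts of Trpm5, 8 of Sh2d6, 1 of Avil, 1 of Gfi1b and none of Pou2f3 or Il25, with 13572 genes, more than 99.2% of cells. Cell 16 had 41848 counts and 10203 genes, more than 85% of cells. Both cells also carried stem and cycle genes: cell 16 had 9 counts of Lgr5, 14 of Mki67 and 26 of Top2a, and cell 26 had 10, 15 and 20 counts of these genes. Whether either capture held more than 1 cell was not tested.

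For 5 of the members, the other cells of set 01 were also above the other sets. Without cell 16, the log2 ratio of set 01 to sets 02 to 10 was 4.38 for Trpm5, 3.96 for Sh2d6, 3.72 for Il25, 1.72 for Avil, 1.23 for Dclk1 and -0.01 for Pou2f3, and Gfi1b had 1 count left in set 01. Without cells 16 and 26, Trpm5 was still counted in 25 of 36 cells of set 01 (69.4%) and its log2 ratio was 4.06. Sh2d6 was then counted in 15 of 36 cells (41.7%) and Il25 in 7 (19.4%). Their ratios were 3.69 for Sh2d6 and 3.78 for Il25, with 1.74 for Avil and 0.96 for Dclk1. Gfi1b had 0 counts in these 36 cells, which allows a share of up to 8.33% by the limit of 3 counts and 9.74% by the exact interval. The mean excess of a further set 01 cell over a cell of sets 02 to 10 was 1.42 counts for Dclk1, 1.41 for Trpm5 and 0.957 for Sh2d6. It was 0.621 for Avil, 0.199 for Il25, 0.0124 for Gfi1b and -0.196 for Pou2f3. As a percent of the count in cell 16, that excess was 10.1% for Dclk1, 8.30% for Trpm5 and 5.04% for Sh2d6. For Avil it was 3.65%, for Il25 2.48%, for Gfi1b 0.414% and for Pou2f3 -1.40%. What lies behind these percents was not tested. The 8 kept cells that carry barcode 16 in other sets held 4 Trpm5 counts in 3 cells and none of Sh2d6, Il25 or Gfi1b. Their mean Trpm5 count was 0.5, against 0.0659 in the cells of sets 02 to 10 with other barcodes. For Dclk1 these means were 1.0 and 1.18, for Avil 0.25 and 0.299, and for Pou2f3 3.0 and 2.76. Whether the barcode had a part was not tested. All 10 sets use the same 40 barcode numbers.

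Cells with counts of several members took a larger share of set 01 than of the other sets. At least 3 of the 7 were counted in 29 of 38 cells of set 01 (76.3%, interval 59.8 to 88.6%), against 76 cells of sets 02 to 10 (22.2%, interval 17.9 to 27%). At least 5 were counted in 9 cells of set 01 and in 1 cell of sets 02 to 10, cell 17 of set 06. Over all sets 7.11% of cells had no member, 30.5% had 1 and 34.7% had 2. The cells with at least 3 members were deeper, with a median of 34862 counts and 9512 genes. Within set 01, 14 cells held both Trpm5 and Sh2d6, which is 51.9% of its Trpm5 cells and 82.4% of its Sh2d6 cells. Of all cells of set 01, 44.7% held Sh2d6 and 71.1% held Trpm5. In sets 02 to 10, 23 cells held Trpm5 (6.73%), 19 held Sh2d6 (5.56%) and no cell held both. At shares this low the lack of overlap was not read as a result.

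**Figure D4:**
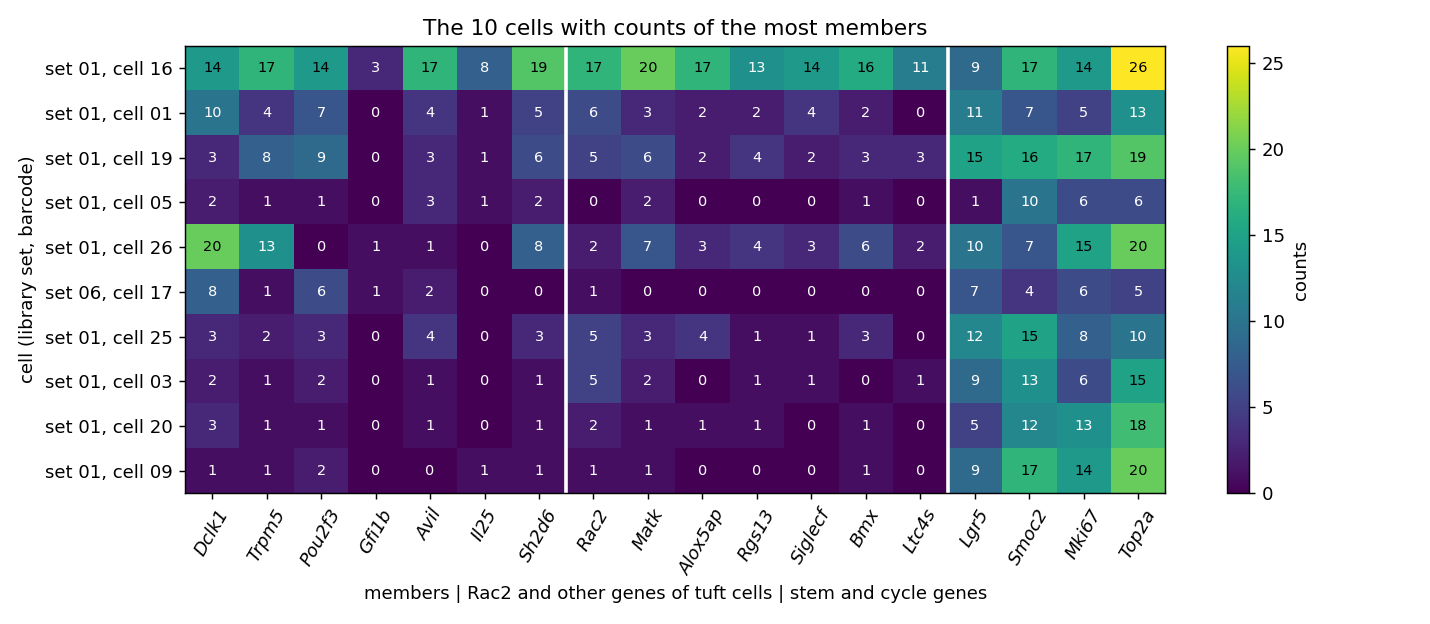
Counts (colour and printed number) in the 10 cells with the most members, 1 cell per row, named by library set and barcode, for the 7 members, Rac2 and 6 other tuft cell genes, and 4 stem and cycle genes in columns. The 6 were picked from the 42 listed genes by no set rule, and have 11 to 20 counts in cell 16. Listed genes with no count in cell 16, among them Gnat3, Plcb2 and Il4ra, are not shown. All rows but 1 are cells of set 01, cell 16 has 17 counts of Trpm5 and 19 of Sh2d6, and every row has counts of Lgr5, Mki67 and Top2a.

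The next cells by number of members were cells 01, 19 and 05 of set 01, with 6 members each and 31, 30 and 10 member counts. Lgr5 had 11, 15 and 1 counts in these cells, and Mki67 had 5, 17 and 6. Cell 17 of set 06 had 18 member counts, of which 8 were Dclk1 and 6 Pou2f3, with 1 Trpm5 count and no Sh2d6. Cells 25, 03, 20 and 09 of set 01 had 5 members each and 6 to 15 member counts. None of the 10 cells lacked Lgr5 or Mki67.

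The other genes of tuft cells were read as a list of 43, chosen with earlier results of these data known, of which 42 were in the table and 33 passed the share filter. In set 01, 17 of the 33 were at least 2-fold higher than in sets 02 to 10 and 1 was 2-fold lower, beside the 6.72% and 9.0% of all genes. Their median log2 ratio of CPM + 1 was 1.05, against 0.01 over all genes. Without cell 16 the list had 13 higher and 1 lower, where 6.86% and 9.13% of all genes were, and a median of 0.53. Of the 33, Ltc4s, Siglecf and Nrep passed the filter only through set 01. With the filter taken over sets 02 to 10 alone, chosen after seeing the data, 15 of 30 genes were higher in set 01 and 1 lower, where 5.84% and 9.43% of 20497 genes were, with a median of 0.89. Without cell 16 as well, 11 of the 30 were higher and 1 lower, where 5.93% and 9.56% of all genes were. Under that filter 5 members passed too, and 4 of them were 2-fold higher and none lower, with and without cell 16.

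All 5 genes for making leukotrienes and prostaglandins, lipid signals that tuft cells release, were at least 2-fold higher in set 01, and 4 of them without cell 16. Of all genes, 6.72% and 6.86% were. Ltc4s was past the filter only through set 01. With the filter over sets 02 to 10 alone, 4 of 4 were higher, and 3 of 4 without cell 16, where 5.84% and 5.93% of all genes were. Alox5ap, the protein that presents arachidonic acid to 5-lipoxygenase, was at 39.7 CPM in set 01 against 3.00 CPM in sets 02 to 10, a log2 ratio of 3.73 (interval 3.05 to 4.42). Alox5, the lipoxygenase itself, was at 38.8 against 9.90 CPM, and Ptgs1, a cyclooxygenase, at 19 against 3.45 CPM. Ltc4s, leukotriene C4 synthase, was at 17.2 against 2.91 CPM, of which cell 16 gave 11 of the 20 counts. Hpgds, a prostaglandin D synthase, was at 23.3 against 8.63 CPM with cell 16 and at 13.4 CPM without it.

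Of the signalling adapters and kinases past the filter, 5 of 9 were at least 2-fold higher in set 01, with and without cell 16, where 6.72% and 6.86% of all genes were. The Csk-like kinase Matk was at 56.9 CPM in set 01 against 3.54 CPM in sets 02 to 10, a log2 ratio of 4.01 (interval 3.41 to 4.62). Bmx, a kinase of the Tec family, had a ratio of 2.44, Lrmp of 2.93, and Rgs13, a regulator of G protein signalling, of 2.25. Fyb and Skap2, adapters counted in 93.9% and 66.8% of all cells, had ratios of -0.18 and 0.48. Inpp5d, a lipid phosphatase, had 0.71, and Ptpn6, a tyrosine phosphatase, 0.08.

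Of the taste pathway genes upstream of Trpm5, 1 of the 4 past the filter was 2-fold higher in set 01, where 6.72% of all genes were. The 1 gene was Plcb2, the phospholipase of taste cells, at 8.62 CPM in set 01 against 3.45 CPM in sets 02 to 10. Gnat3, the taste G protein subunit gustducin, was at 12.9 against 8.36 CPM with an interval of the log2 ratio of -0.26 to 1.43. Itpr3, the calcium release channel, was lower in set 01, at 40.5 against 81.1 CPM, a log2 ratio of -1.0 (-1.46 to -0.58), and was counted in 70.5% of all cells. The receptor of short fatty acids Ffar3, too rare for the filter, had 20 counts in set 01 and 3 in sets 02 to 10. Among cytokine genes and receptors, Tslp had a log2 ratio of 1.69 and Il17rb, a subunit of the receptor for interleukin 25, one of 1.71, and neither was 2-fold higher on the CPM + 1 scale without cell 16. Il4ra, a receptor chain for interleukins 4 and 13, was lower, at 3.45 against 9.63 CPM, and Il13ra1 had a ratio of -0.49 (-1.12 to 0.09).

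Of the transcription factors, Spib, an ETS factor, had 33 counts in set 01 and 6 in sets 02 to 10, and 25 of the 33 lay in cells 16 and 26. Sox9 and Ascl2, factors of crypt base cells counted in 93.7% and 91.1% of cells, had log2 ratios of -0.08 and 0.11 with intervals that include 0. Of the remaining genes, Siglecf, a lectin, was at 30.2 CPM in set 01 against 1.27 CPM in sets 02 to 10, and Kctd12 at 51.7 against 14.6 CPM. Ly6g6f was at 32.8 against 5.45 CPM, while Chat, which makes acetylcholine, was at 6.90 against 5.00 CPM with an interval of the log2 ratio of -0.82 to 1.54. Cell 16 was the highest of all cells for 20 of the 42 genes and had counts of 32 of them. Over all 33496 genes it had counts of 10203, and the share highest in this cell is not given here. The listed genes without a count in cell 16 were Gnat3, Gnb3, Gng13, Plcb2 and Tas1r3 of the taste pathway, and Il4ra, Il13ra1, Hmx2, Ly6g6d and Nrep.

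Genes outside the tuft cell lists gave these values beside the set 01 result. Of all genes, 6.72% were 2-fold higher and 9.0% lower in set 01, and 6.86% and 9.13% without cell 16. Of the 11 paralogs of the members past the filter, none was 2-fold higher in set 01, with log2 ratios of CPM + 1 from -0.67 (Dclk3) to 1.00 (Il17c). Without cell 16, Il17c was at 1.04 and so 1 of the 11 was 2-fold higher. Of the 8 stem genes none was 2-fold higher or lower, and Lgr5 was at 191.5 CPM in set 01 against 204.6 CPM in sets 02 to 10. Of 4 cycle genes, Pcna was 2-fold lower, at 75 against 152.9 CPM. Of the 9 background genes measured, 6 passed the filter: Ptprc was at 27.6 against 12.1 CPM, and the other 5 differed by less than 2-fold. Cd8a, Cd79a and Col1a1 were at 0 in set 01. Cell 16 had 8 Ptprc counts, the most of any cell, 2 of Cpa3, and none of Cd3e, Cd8a, Cd79a, Chga, Muc2 or Alpi. The part of these genes, of depth or of the library set in the result was not tested.

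Each cell was also thinned to 19169 counts, which left out 38 shallower cells, 5 of them in set 01. Trpm5 was then counted in 19 of 33 cells of set 01 (57.6%), against 12 cells of sets 02 to 10 (3.88%). Sh2d6 was counted in 15 of 33 cells of set 01 (45.5%), against 13 cells of sets 02 to 10 (4.21%). Avil was counted in 39.4% of the thinned cells of set 01, against 15.2% of those of sets 02 to 10, and Dclk1 in 63.6% against 41.7%. Pou2f3 shares were 75.8% in set 01 and 77.7% in sets 02 to 10, closer than at full depth.

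The study's question about Mex3a was put to the members by splitting the cells. A Mex3a count was found in 47 of 380 cells, 4 of them in set 01, and the cells with it were slightly deeper, with a median total of 34019 against 31936 counts in the cells without. Avil was counted in 5 of the 47 cells with Mex3a (10.6%, interval 3.55 to 23.1%), against 83 cells without (24.9%, interval 20.4 to 29.9%). Its level was 5.24 CPM in cells with Mex3a against 13.6 CPM in cells without, a log2 ratio of -1.38 (interval -2.62 to -0.36). In sets 02 to 10 alone the ratio was -1.50 (-3.15 to -0.22). Thinning left 30 cells with a Mex3a count, so the thinned groups are not those at full depth. The thinned ratio was -1.43 with an interval of -3.74 to 0.17. The full-depth result rested on 8 Avil counts in cells with Mex3a.

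Dclk1 was at 30.2 CPM in cells with Mex3a against 43.9 CPM in cells without, a log2 ratio of -0.54 (-1.01 to -0.10). The ratio of Dclk1 in sets 02 to 10 alone was -0.48, with an interval of -1.003 to 0.003 that includes 0. After thinning, with 30 cells with Mex3a, the ratio was -0.05 (-0.73 to 0.57). That interval includes both 0 and the full-depth ratio of -0.54. The groups are not those at full depth, so the part of depth in the difference cannot be told from this value. Pou2f3 was counted in 93.6% of the cells with Mex3a, against 84.4% of those without, with a log2 ratio of 0.19 (-0.07 to 0.44). Trpm5 (0.09, interval -0.87 to 0.94) and Sh2d6 (-0.20, interval -1.38 to 0.81) had ratios whose intervals include 0 and reach past or near 2-fold, so a difference of that size was not detectable at this depth. In sets 02 to 10 alone the ratio was -0.80 for Trpm5 (interval -3.93 to 1.21), where 2 of the 13 Trpm5 counts in cells with Mex3a lay, and -0.02 for Sh2d6 (-2.41 to 1.72). Il25 had 1 count in cells with Mex3a against 21 in cells without, and Gfi1b had 0 against 9. The 0 of Gfi1b allows a log2 ratio of up to 1.82.

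**Figure D5:**
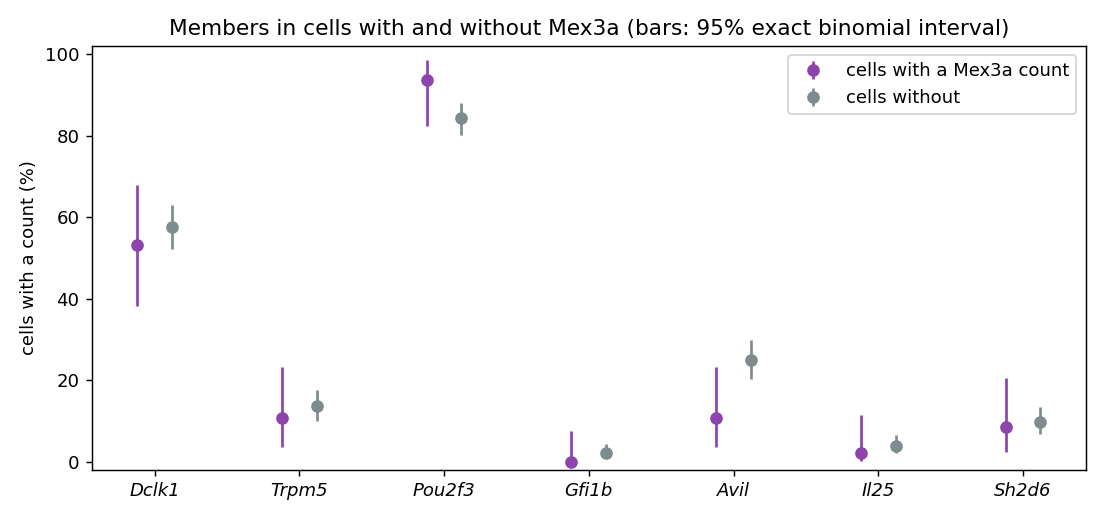
Share of cells with a count (vertical axis, percent) of each member in the 47 cells with a Mex3a count (purple, left) and the cells without (grey, right), with exact 95% binomial intervals as bars. Avil is at 10.6% with Mex3a and 24.9% without, and the intervals of each of the 7 pairs overlap.

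Genes were ranked by how their log2(CPM + 1) followed the mean of the members over the 380 cells. These correlations are descriptions: the cells share libraries and depth, and the member mean itself had a Pearson r of 0.43 with the number of genes per cell. The 10 most alike were Rac2 (r = 0.48), Siglecf (0.41), Slc5a4b, Kcnc4, Atp12a, Bmx, Alox5ap, Spink1, Gm37571 and Matk (0.35). Rac2, a small GTPase best known in blood cells, was counted in 20 of 38 cells of set 01 with 60 counts, against 11 cells of sets 02 to 10 with 14 counts. In sets 02 to 10 alone Rac2 and Siglecf fell below the filter of 5% of cells and were not ranked. None of the other 8 was among the 10 most alike there, and the highest r was 0.36, for Sept3.

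For single members the values were as low. Trpm5 and Sh2d6 had the same 3 genes highest, Rac2 (r = 0.45 and 0.47), Matk (0.39 and 0.40) and Alox5ap (0.38 and 0.40). In sets 02 to 10 alone they shared none: Trpm5 was most like Pard6a, Mipepos and Gm29066, with r from 0.23 to 0.25, and Sh2d6 most like Tmem140, Lax1 and Snai2, with r of 0.33 each. Avil was most like Rac2, Kcnc4 and D930007P13Rik, with r from 0.29 to 0.32. Dclk1 was most like Slc22a20, Nmnat2 and Spag17, with r from 0.35 to 0.36, and Pou2f3 most like Tmem63c, Gm16378 and Gm11539, with r from 0.34 to 0.41. For Gfi1b (Ucma, Aloxe3 and 1700061I17Rik) and Il25 (9930022D16Rik, Dpysl2 and an identifier without a symbol) the ranking rested on 7 and 14 cells with a count.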

How the data were processed

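The authors deposited 1 table of whole-number counts for 33496 genes in 400 single cells, unscaled, with a highest count of 36. Per the submitters' processing notes the genome was GRCm38.p4. Not given in the sources used here were the aligner and counter, the gene models, and whether strand and molecular identifiers were used, so reads of overlapping genes on opposite strands may be shared. Read copies without such identifiers are not independent molecules.

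Symbols and positions came from GENCODE M21 on the same build, which matched 33219 of the identifiers. Sucnr1, Hbb-bs and some further genes of the lists were not analysed here. Cells with at least 10000 counts were kept (380), doublets were not removed, and the spike-in RNA named in the labels was not used. CPM was the summed counts over summed totals. A share has a Clopper-Pearson interval, CPM a Poisson interval, and a ratio of CPM the exact binomial interval of its 2 counts. Gene ranks and medians of lists used log2(CPM + 1) and genes counted in at least 5% of cells. A limit for a count of 0 is that of 3 counts. Thinning drew counts without replacement to the 10th percentile of totals, with a fixed seed. Upstream windows came from RefSeq, build GRCm38.p6, which held 5 of the 7 members.

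The members and gene lists were chosen with earlier results of these data known. The text names all members, the genes of the lists where their role is described, the 10 genes most like the members, 3 genes per member and the 10 cells with the most members, and Rac2 through that rule. Alternatives were other cell minimums, thinning, 2 counts per cell, other scalings, and leaving out library sets or cells. The steps were tested on simulated data. Python 3.11.15, pandas 2.3.3, numpy 2.4.6, scipy 1.17.1 and matplotlib 3.10.9 were used.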

Additional observations from a re-analysis of the deposited data

Results flagged for a closer look

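Library set 01 stood far from the other 9 sets in 9 of 14 comparisons of the 10 sets (the share of cells with a count and the CPM of each of the 7 members). The measure was its gap to the nearest set divided by the range of all sets, and values past 0.466 were flagged. The 14 comparisons share the same cells and genes, and set 01 had been kept apart beforehand. Their number is therefore a description and cannot say how often chance would give it. By level, set 01 was at 94.9 CPM for Dclk1, 62.1 for Trpm5, 3.45 for Gfi1b, 44 for Avil, 13.8 for Il25 and 49.2 for Sh2d6. By share of cells it was at 71.1% for Trpm5, 21.1% for Il25 and 44.7% for Sh2d6. The 3.45 CPM of Gfi1b came from 4 counts in 2 cells. Pou2f3 did not stand apart in set 01 by either measure.

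The 20 cells with fewer than 10000 counts, used in no comparison, held counts of some members above the 20.0 CPM that 3 counts would give. Pooled over these cells, Pou2f3 was at 60.04 CPM (9 counts), Dclk1 and Avil were at 33.4 CPM (5 counts each) and Trpm5 was at 26.7 CPM (4 counts). Of the 20 cells, 2 were of set 01.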

How the results depend on the processing

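No paired analysis was possible because all cells form 1 group. Over 30 results, 40 values with another setting lay outside the interval of the main value or, for counts of cells or genes, moved by over 1.5 times. Of the values inside the interval, 4 ratios had the other sign (Trpm5 by Mex3a at -0.21 after thinning and at -0.80 without library set 01, Sh2d6 by Mex3a at 0.24 without cell 16, and Pou2f3 in set 01 at -0.01 without cell 16), and all 4 main intervals include 0. A further 5 rare shares or levels moved by over 1.5 times inside a wide interval: Gfi1b to 1.17% and 1.05% after thinning to the 10th and 25th percentile and to 0.454 CPM without library set 01, and Il25 to 2.05% after thinning to the 10th percentile and to 1.15 CPM without cell 16. The set 01 ratio of Gfi1b without cell 16 was 0.98, on 1 count. Thinning to the 10th percentile gave shares of 43.9% for Dclk1, 9.06% for Trpm5, 77.5% for Pou2f3 and 17.5% for Avil, with 62 cells of 3 or more members and 6 of 5 or more, a log2 ratio of Dclk1 by Mex3a of -0.046, and 5 of the 10 most alike genes shared. Thinning to the 25th percentile gave Avil 17.9%. Asking for 2 counts gave shares of 29.2% for Dclk1, 3.42% for Trpm5, 65% for Pou2f3, 0.263% for Gfi1b, 7.11% for Avil, 0.526% for Il25 and 2.89% for Sh2d6, with 24 cells of 3 or more members and 4 of 5 or more. With 2 Mex3a counts, the Trpm5 ratio was -1.39. At least 20000 counts per cell gave Pou2f3 89.6%.

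Without library set 01, shares were 6.73% for Trpm5, 1.75% for Il25 and 5.56% for Sh2d6. Levels were 36.6 CPM for Dclk1, 2.36 for Trpm5, 9.26 for Avil, 0.545 for Il25 and 2.18 for Sh2d6. Then 1 cell had 5 or more members, and 0 of the 10 most alike genes were shared, of which 8 were common enough there to be ranked. Leaving out abundant genes gave 49.6 CPM for Dclk1, 101.998 for Pou2f3 and 14.8 for Avil, and correcting counts for merged identifiers gave Pou2f3 81.4. Without the 5% of cells with the most genes, Dclk1 was at 35 and Sh2d6 at 5.21 CPM. Leaving out cell 16, chosen after seeing the data, gave Sh2d6 5.11 CPM and a set 01 ratio of 1.72 for Avil. Leaving out cells 16 and 26, likewise, gave ratios of 0.96 for Dclk1 and 3.69 for Sh2d6, and none for Gfi1b, with 0 counts. The cause was not tested. With 9 counts of Gfi1b and 22 of Il25 over all cells, the values of both are imprecise.

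Leaving out each set in turn, shares ranged from 54.7 to 59.8% for Dclk1, 6.73 to 14.4% for Trpm5, 84.2 to 86.5% for Pou2f3, 1.46 to 2.05% for Gfi1b, 19.9 to 24.4% for Avil, 1.75 to 4.11% for Il25 and 5.56 to 10.6% for Sh2d6. Levels ranged from 36.6 to 44.6 CPM for Dclk1, 2.36 to 9.08 for Trpm5, 85.1 to 88.2 for Pou2f3, 0.454 to 0.842 for Gfi1b, 9.26 to 13.5 for Avil, 0.545 to 2.06 for Il25 and 2.18 to 7.43 for Sh2d6. Cells with 3 or more members numbered at least 76, and those with 5 or more 1 to 10.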

Other observations

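Secretory and absorptive lineages of the same epithelium were also read from marker lists, with the gene of the highest and of the lowest log2 ratio of CPM + 1 named for each. Of 6 Paneth cell genes past the filter of 5% of cells, none was 2-fold higher or lower in set 01 than in sets 02 to 10, with ratios from 0.13 (Itln1) to 0.91 (Mmp7, a protease that activates defensins). Of 7 goblet cell genes 1 was 2-fold higher and none lower, with ratios from -0.82 (Tff3) to 1.74 (Clca1). Of 7 enteroendocrine genes none was 2-fold higher and 2 were lower, with ratios from -1.58 (Chga, a granin of secretory granules) to 0.71 (Cck). Of 6 enterocyte genes 1 was 2-fold higher and 1 lower, with ratios from -2.60 (the apolipoprotein Apoa1) to 1.09 (Fabp1, a fatty acid binding protein). Without cell 16 the same counts were found, but for no enterocyte gene 2-fold higher, with Fabp1 at 0.81. All genes had a median of 0.01, and 6.72% of them were 2-fold higher and 9.0% lower in set 01. Without cell 16 these shares were 6.86% and 9.13%. In lists of 6 or 7 genes, a count of 1 or 2 was not read as a result.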
